A study of Mus musculus with 20 samples.

Results

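The genes described here encode 8 enzymes that free arachidonate from membrane phospholipid and turn it into prostanoids or leukotrienes: the phospholipases Pla2g4a and Pla2g5, the cyclooxygenases Ptgs1 and Ptgs2, the terminal synthases Ptges, Ptgis and Ptgds, and the lipoxygenase Alox5. They are 8 of the 21705 genes in the deposited table of mouse heart ventricle RNA, and all 8 passed the filter on low values, a value of at least 10 in at least 5 libraries. Members were found by gene symbol, and the table gives their Entrez identifiers as 18783 (Pla2g4a), 18784 (Pla2g5), 19224 (Ptgs1), 19225 (Ptgs2), 64292 (Ptges), 19223 (Ptgis), 19215 (Ptgds) and 11689 (Alox5). Pla2g4a was picked because its values were high in knockout hearts, so its differences between genotypes are given as a description with no test. Alox5 makes leukotriene precursors and not prostanoids, and is kept with the others as the enzyme that competes for the same substrate.

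Poly(A) RNA was sequenced from the ventricles of 20 male C57Bl/J6 mice in a 2 by 2 design with 5 libraries per group. Knockout hearts were Acsl1H-/-, lacking long-chain acyl-CoA synthetase 1 in the heart after tamoxifen, and control hearts came from Acsl1flox/flox littermates. All 4 groups were given tamoxifen at 75 mg/kg on 4 days in a row, at an age of 6 to 8 weeks, and hearts were removed 2 weeks after that. Control vehicle and knockout vehicle mice received the solvent each day for 2 weeks, and control rapamycin and knockout rapamycin mice received 1 mg/kg of rapamycin, an inhibitor of the kinase mTOR complex 1. The driver of the recombinase is not given in the sources used here, and every heart compared had been exposed to tamoxifen, so no group shows the untreated heart.

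Arachidonate is stored esterified in membrane phospholipids, and calcium-dependent cytosolic phospholipase A2 releases it when cells are stimulated. Cyclooxygenases convert free arachidonate to prostaglandin H2, which terminal synthases turn into prostaglandin E2, prostacyclin, prostaglandin D2 or thromboxane, whereas 5-lipoxygenase starts the route to leukotrienes. In the heart, prostacyclin and prostaglandin E2 are known mainly from vascular and interstitial cells, and the inducible cyclooxygenase is known to respond to injury and inflammation. Acyl-CoA synthetases such as Acsl1 activate long-chain fatty acids, which in heart muscle serve chiefly for oxidation.

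Pla2g4a and Ptgs2 are neighbours among coding genes on mouse chromosome 1, on opposite strands. They had the 2 largest differences between genotypes under vehicle of the 8 genes. Pla2g4a was picked for its rise, so its place was favoured by that choice, and Ptgs2 did not pass the threshold. Whether their position plays a part was not tested. The upstream sequences of Pla2g4a and Ptgs2 are shown with that of Ptgds, whose values varied most between libraries. Each run is the 250 bases before an annotated start, 5′ to 3′ on the gene's strand, from RefSeq on build GRCm38.p6, and 7 of the 8 genes had an entry. Pla2g4a lies at chr1:149961291-149961540 on the minus strand, Ptgs2 at chr1:150099781-150100030 on the plus strand and Ptgds at chr2:25469750-25469999 on the minus strand. Capitals mark a match to any of 5 motifs searched on both strands, namely the box of TATAAA, the cyclic AMP element core of TGACGT, the GC box of GGGCGG, the E-box motif of CACGTG and the AP-1 site of TGANTCA.
Pla2g4a: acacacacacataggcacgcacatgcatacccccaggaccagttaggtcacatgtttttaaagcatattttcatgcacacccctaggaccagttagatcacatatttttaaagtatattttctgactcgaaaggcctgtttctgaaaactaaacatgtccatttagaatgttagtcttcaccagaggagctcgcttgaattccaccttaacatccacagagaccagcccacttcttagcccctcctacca
Ptgs2: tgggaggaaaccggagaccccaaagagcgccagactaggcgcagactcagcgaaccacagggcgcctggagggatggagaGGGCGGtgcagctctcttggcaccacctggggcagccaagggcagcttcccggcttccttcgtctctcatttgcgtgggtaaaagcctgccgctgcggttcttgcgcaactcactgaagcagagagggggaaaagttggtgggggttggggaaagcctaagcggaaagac
Ptgds: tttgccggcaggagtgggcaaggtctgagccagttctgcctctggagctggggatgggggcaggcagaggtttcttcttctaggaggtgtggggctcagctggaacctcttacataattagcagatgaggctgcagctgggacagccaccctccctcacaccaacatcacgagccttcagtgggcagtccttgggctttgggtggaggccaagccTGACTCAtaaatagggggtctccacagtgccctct
The Pla2g4a window held none of the 5, the Ptgs2 window held 1 GC box that begins 170 bases before the start, and the Ptgds window held 1 AP-1 match that begins 35 bases before it. None of these matches overlapped another. Another annotated Pla2g4a start, with its window at chr1:149922440-149922689, had 1 match to the TATAAA box. Over 32851 such windows, 12.4% held the TATAAA box, 6.47% a cyclic AMP element core, 32.7% a GC box, 6.02% an E-box and 6.75% an AP-1 site in these letters. The share of G and C bases was 43.2% in the Pla2g4a window, 61.6% in that of Ptgs2 and 58.4% in that of Ptgds, against a median of 52.4% over all windows. A match is a run of letters and not a measured binding site.

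Values are normalized RSEM signals whose upper quartile is close to 1000 in every library, and 1 read was worth between 1.12 and 2.32 of these units. Acsl1 itself, the check of the labels, ranged from 740 to 1680 in knockout vehicle and from 6370 to 13400 in control vehicle hearts, and from 631 to 1950 against 10500 to 16700 under rapamycin, with no overlap. The total depth implied by the low values was 11.5 M to 21.1 M reads per library. The 2 control vehicle libraries with replicate numbers 1 and 3 lay far from the other 18 along the leading axis of variation (33.7% of the variance) and had relatively low values for long transcripts (scores of -0.75 and -0.84 on a log2 scale, against -0.29 to 0.41 in the others). Summed cardiomyocyte markers (6 of 6 tested) lay between 1120500 and 1378700 in all libraries, none of them at 0. Atrial markers were also present in these ventricle samples, with Sln and Bmp10 at 0 in some libraries. Each of the 4 sequencing pools held at least 1 library of every group. P-values measure the spread between these libraries, which the design text calls biological replicates.

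Per kilobase of transcript, Ptgds had the highest level of the 8 genes, at 9219 units (SD 6632, n = 20). Pla2g5 followed at 760, Ptgis at 362, Alox5 at 248, Ptgs1 at 94.1, Pla2g4a at 30.1, Ptgs2 at 11.8 and Ptges at 11.4. Ptgds, the lipocalin-type prostaglandin D synthase, is also a secreted carrier protein, and its level exceeded that of 96.6% of tested genes before division by length. Each gene in this order was above the next in 20 of 20 libraries except at 2 places: Ptgis exceeded Alox5 in 17 of 20, and Ptgs2 exceeded Ptges in 9 of 20, so the last pair cannot be ordered. Among the phospholipases the secreted enzyme Pla2g5 thus stood above the cytosolic Pla2g4a in every library, and among the cyclooxygenases the constitutive Ptgs1 above the inducible Ptgs2.

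Pla2g4a, the cytosolic phospholipase A2 that selects arachidonate, had values of 51.3, 51.0, 58.0, 61.1 and 49.3 in the 5 control vehicle hearts. In the knockout vehicle hearts it had 153, 179, 93.4, 107 and 109. In the control rapamycin hearts it had 67.3, 59.5, 66.2, 88.1 and 71.2, and in the knockout rapamycin hearts 86.8, 105, 94.5, 55.0 and 102. Every knockout vehicle heart lay above every control vehicle heart, while under rapamycin 1 knockout heart lay below all 5 controls and the groups overlapped. The means were 54.2 ± 5.10 (SD, n = 5) in control vehicle, 128 ± 36.0 in knockout vehicle, 70.5 ± 10.7 in control rapamycin and 88.7 ± 20.1 in knockout rapamycin. In bulk ventricle RNA such as this, fewer cells of a type and less RNA per cell cannot be told apart.

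On the log2(value + 1) scale the Pla2g4a difference between genotypes was 1.19 under vehicle (SE 0.19) and 0.30 under rapamycin (SE 0.19), and the difference of these differences was -0.88 (SE 0.28). These 3 values include the ones for which the gene was picked, and no test is attached to them. Within the 4 sequencing pools the vehicle difference was 1.43, 1.79, 0.79 and 1.10, and without control vehicle replicates 1 and 3 it was 1.20. The gene was picked for its rise in knockout hearts, and the vehicle groups do not overlap, so the sign of these vehicle values was fixed beforehand. Between drugs, Pla2g4a was 0.37 higher with rapamycin in control hearts (SE 0.19, limma adjusted p = 0.3455) and the log2 difference in knockout hearts was -0.52 (SE 0.19, adjusted p = 0.6248). Neither passed the threshold of 0.05 after Benjamini-Hochberg adjustment over 13548 genes. Both use the vehicle libraries in which the gene was picked, where the pick favours low control and high knockout values. That choice favours a rise with rapamycin in controls and a fall in knockouts, so these p-values decide nothing about the drug.

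Pla2g5, a secreted calcium-dependent phospholipase A2 abundant in heart, had values of 2080.4, 2095, 3186, 1800.3 and 1499 in control vehicle hearts. Knockout vehicle hearts had 1070.4, 1205, 1014, 1849.5 and 1391. The 3 highest values of these 10 were control hearts, but the groups overlapped through knockout vehicle replicate 4. Under rapamycin, control hearts lay between 1350.5 and 1566 and knockout hearts between 990.9 and 1594.5. The knockout difference under vehicle was -0.70 (SE 0.18, 95% confidence interval -1.07 to -0.32), with adjusted p = 0.07614, and under rapamycin it was -0.17 (SE 0.18, adjusted p = 0.9996).

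Pla2g5 was also lower with rapamycin than with vehicle in control hearts, by a log2 change of -0.48 (SE 0.18, adjusted p = 0.328). This comparison and the genotype comparison under vehicle share the control vehicle libraries, among which replicate 3 was the highest. Without replicates 1 and 3 of that group the genotype difference was -0.48 (adjusted p = 0.657). With a single library left out, Pla2g5 passed the threshold in 4 fits. The limma adjusted p was 0.04863 without control vehicle replicate 4 and 0.02513 without control vehicle replicate 5. It was 0.04858 without knockout vehicle replicate 4 and 0.0359 without knockout vehicle replicate 5. The share of all tested genes called was 2.53%, 22.8%, 0.23% and 19.0% in the same order, against 0.244% with all libraries. The genotype difference was -0.744 (SE 0.191), -0.81 (SE 0.176), -0.829 (SE 0.171) and -0.727 (SE 0.192) in these fits. With all libraries it was -0.695 (SE 0.178). The adjustment depends on all tested genes, so a lower adjusted p is not by itself a clearer Pla2g5 difference. Within pools the vehicle difference was -0.85, -0.80, -1.42 and 0.30, so pool 4 had the opposite sign.

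**Figure D1:**
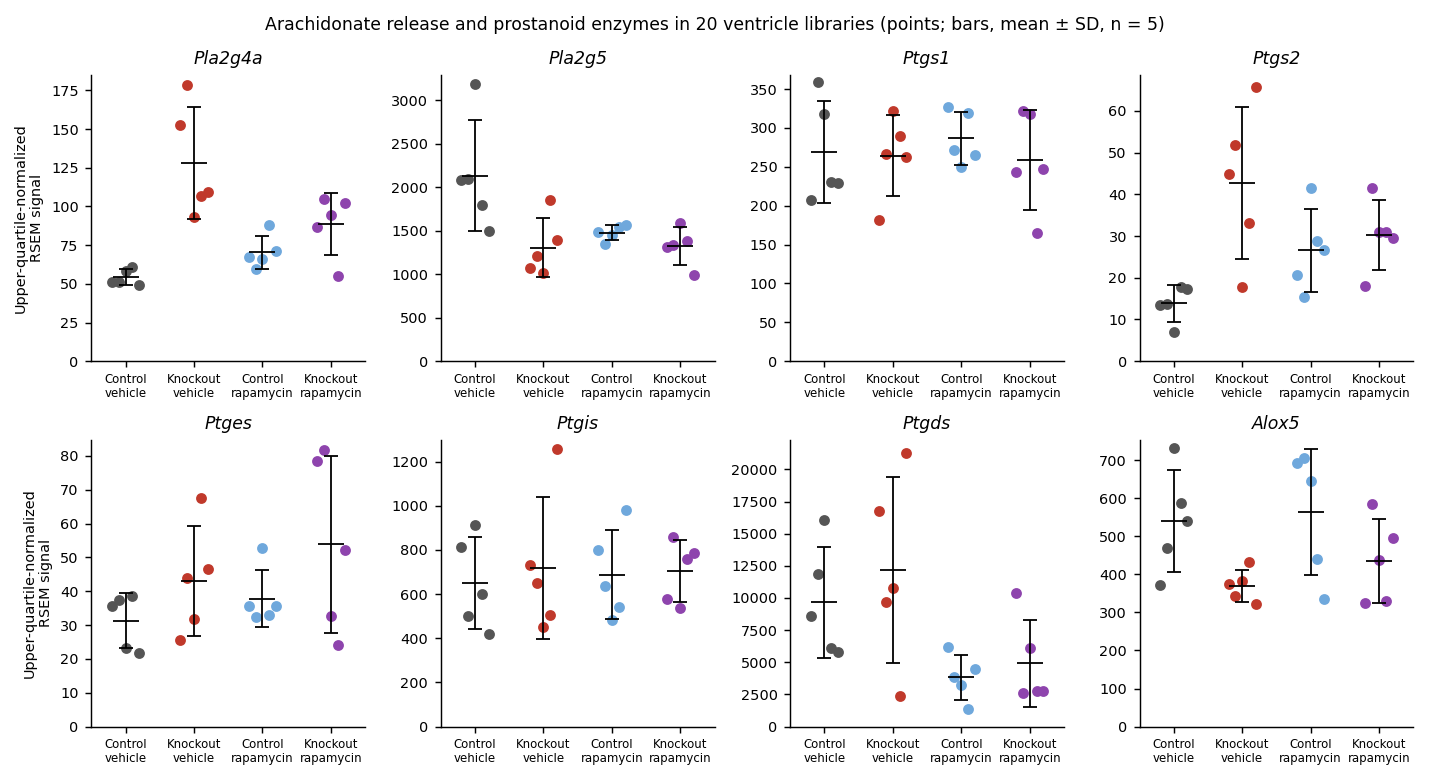
Normalized signal (vertical axes, linear from 0) of the 8 genes in the 4 groups, with 1 point per library and black bars for the mean ± SD of 5 libraries. Pla2g4a and Ptgs2 lie lowest in control vehicle hearts and highest in knockout vehicle hearts, and Ptgds lies lower in both rapamycin groups with a wide spread.

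Ptgs1, the constitutive cyclooxygenase, differed little between groups. Its means were 269 ± 65.7 (SD, n = 5) in control vehicle, 264 ± 52.2 in knockout vehicle, 287 ± 34.3 in control rapamycin and 259 ± 64.3 in knockout rapamycin hearts. The knockout difference under vehicle was -0.02 on the log2 scale, with a 95% confidence interval of -0.42 to 0.38 (adjusted p = 0.9562). Ptgs1 shares exon bases with a gene on the opposite strand, Gm43621, and whether the counting used strand is not given in the sources used here.

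Ptgs2, the inducible cyclooxygenase, was close to the lower limit of the data, with 3 to 46 read equivalents per library. Its values were 13.4, 13.7, 6.96, 17.9 and 17.4 in control vehicle hearts and 44.9, 51.7, 17.9, 33.1 and 65.7 in knockout vehicle hearts. Control rapamycin hearts had 20.6, 15.3, 41.5, 28.9 and 26.7, and knockout rapamycin hearts 17.9, 41.6, 30.9, 30.9 and 29.5. The vehicle groups did not overlap, but the normalized values of the lowest knockout heart (17.893) and the highest control heart (17.884) were almost equal. These 2 hearts had 9.0 and 12.0 read equivalents, so their order comes from the scaling. Of the 7 genes other than Pla2g4a, Ptgs2 was the 1 whose vehicle groups did not overlap, and 2.32% of all tested genes had non-overlapping groups there.

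The Ptgs2 difference between genotypes under vehicle was 1.49 on the log2 scale (SE 0.34, 95% confidence interval 0.78 to 2.21), with adjusted p = 0.06546, so it did not pass the threshold. Within the 4 pools it was 1.48, 1.84, 2.16 and 0.89, with a sign that follows from groups that do not overlap. Under rapamycin the difference was 0.20 (SE 0.34, adjusted p = 0.9996), and the interaction of genotype and drug was -1.29 (SE 0.48, adjusted p = 0.5232), so a difference between the 2 conditions was not shown. In control hearts Ptgs2 was 0.88 higher with rapamycin than with vehicle (SE 0.34, adjusted p = 0.328), a comparison that again uses the low control vehicle libraries.

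The Ptgs2 difference passed the threshold in 4 fits, each with a single library left out. The adjusted p was 0.03905 without control vehicle replicate 4, 0.03034 without control vehicle replicate 5, 0.02347 without knockout vehicle replicate 3 and 0.0359 without knockout vehicle replicate 5. In the same order 2.53%, 22.8%, 0.266% and 19.0% of all tested genes were called, against 0.244% with all libraries. The difference was 1.596 (SE 0.364), 1.587 (SE 0.365), 1.766 (SE 0.319) and 1.311 (SE 0.35) in these fits. With all libraries it was 1.494 (SE 0.341). The adjustment depends on all tested genes, so a lower adjusted p is not by itself a clearer Ptgs2 difference. Without control vehicle replicates 1 and 3 together the limma adjusted p was 0.575, with a difference of 1.22. Per kilobase, Ptgs2 amounted to 6.63% ± 2.92 (SD, n = 5) of the Ptgs1 level in control vehicle hearts, 20.5% ± 10.2 in knockout vehicle, 11.4% ± 5.2 in control rapamycin and 14.5% ± 5.1 in knockout rapamycin hearts. Ptgs1 therefore remained the more abundant cyclooxygenase transcript in all groups.

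Ptges, the inducible microsomal prostaglandin E synthase, was likewise low, with means of 31.3 ± 8.17 (SD, n = 5) in control vehicle, 43.1 ± 16.3 in knockout vehicle, 37.8 ± 8.49 in control rapamycin and 53.9 ± 26.1 in knockout rapamycin hearts. The knockout difference was 0.41 under vehicle (adjusted p = 0.3643) and 0.37 under rapamycin (adjusted p = 0.9996), each with an SE of 0.32. The groups overlapped in both comparisons, and within pools the vehicle difference ran from -0.53 to 1.59. In the knockout rapamycin group 2 hearts had 78.5 and 81.8, another 2 had 32.6 and 24.1, and the fifth had 52.3.

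Ptgis, prostacyclin synthase, had means of 649 ± 208 (SD, n = 5), 719 ± 321, 689 ± 203 and 704.5 ± 140 in control vehicle, knockout vehicle, control rapamycin and knockout rapamycin hearts. The knockout difference under vehicle was 0.11 (95% confidence interval -0.44 to 0.66, adjusted p = 0.7844). Knockout vehicle replicate 5 had the highest value of the 20, at 1256. Ptgis shares exon bases with 1110018N20Rik on the opposite strand.

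Ptgds, which makes prostaglandin D2, spread most. Control vehicle hearts had 8580.4, 11841, 16070.0, 6079 and 5830.2, and knockout vehicle hearts 16795, 9688, 10761, 2358 and 21299. Control rapamycin hearts had 6164.5, 3878, 3220.0, 1338 and 4507, and knockout rapamycin hearts 10397, 2575, 6091, 2802 and 2766. The highest value was 15.9 times the lowest, and the SD within groups, 0.92 on the log2 scale, was larger than that of 95.9% of tested genes. The group medians were 8580.4, 10761, 3878 and 2802 in that order, and vehicle and rapamycin hearts overlapped in both genotypes.

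The rapamycin difference of Ptgds was -1.39 in control hearts (SE 0.53, adjusted p = 0.328) and -1.22 in knockout hearts (SE 0.53, adjusted p = 0.7883). Averaged over genotypes it was -1.31 (SE 0.37, limma adjusted p = 0.2111), which did not pass the threshold. Within pools the control difference was -0.23, -2.38, -2.32 and -0.37 and the knockout difference was -2.71, 0.10, -1.31 and 0.24, so 2 of the 4 pools had the opposite sign in knockout hearts. Between genotypes Ptgds differed by 0.12 under vehicle, with a 95% confidence interval of -0.97 to 1.22 (adjusted p = 0.8843).

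Alox5, arachidonate 5-lipoxygenase, is known mainly from myeloid cells. Its values were 373, 469, 733, 589 and 539.9 in control vehicle hearts and 374, 343, 382, 432 and 322 in knockout vehicle hearts. Control rapamycin hearts had 692, 706, 644, 442 and 336, and knockout rapamycin hearts 325, 585, 438, 329.9 and 497. Under vehicle, 2 of the 5 knockout hearts lay below the lowest control heart, and the groups overlapped. The difference was -0.51 under vehicle (SE 0.21, adjusted p = 0.122), -0.35 under rapamycin (SE 0.21, adjusted p = 0.9996) and -0.43 averaged over injections (SE 0.15, adjusted p = 0.2016).

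**Figure D2:**
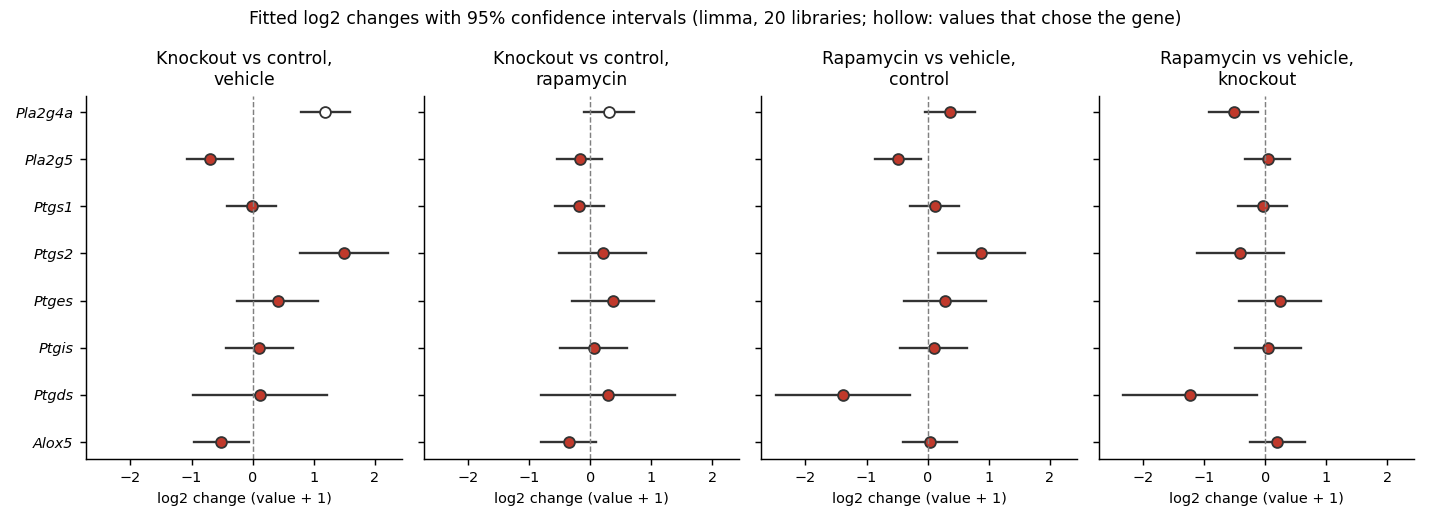
Fitted log2 changes (horizontal axes, on values + 1) with 95% confidence intervals for the 8 genes in the 4 pairwise comparisons, from 1 limma model of 20 libraries. Hollow points are the Pla2g4a genotype differences, given with no test because the gene was picked for its rise in knockout hearts. The widest intervals belong to Ptgds.

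Counted together, 0 of the 7 genes other than Pla2g4a passed an adjusted p of 0.05 in any of the 7 comparisons by limma. In the genotype comparison under vehicle 0.244% of the 13548 tested genes passed, and 3 of the 7 (Pla2g5, Ptgs2 and Alox5) had an unadjusted p under 0.05 beside 31.8% of all tested genes. The share of all genes called was 0.0221% for genotype under rapamycin, 0.0% for rapamycin in control hearts, 0.00738% for rapamycin in knockout hearts, 0.0% for the interaction, 0.443% for genotype averaged over injections and 0.125% for rapamycin averaged over genotypes. At an unadjusted p under 0.05 there were 0 of the 7 for genotype under rapamycin (2.97% of all genes), 3 (Pla2g5, Ptgs2 and Ptgds) for rapamycin in controls (14.9%), 1 (Ptgds) for rapamycin in knockouts (5.71%), 1 (Ptgs2) for the interaction (8.3%), 3 (Pla2g5, Ptgs2 and Alox5) for genotype averaged over injections (19.1%) and 1 (Ptgds) for rapamycin averaged over genotypes (9.23%). Non-overlapping groups were found in 0.878% of genes for genotype under rapamycin, 1.46% for rapamycin in controls and 1.85% for rapamycin in knockouts, and in 0 of the 7 there. Under vehicle, 33 genes were called and 4315 had an unadjusted p under 0.05. The count of all genes called was 343 without control vehicle replicate 4, 3090 (22.8%) without control vehicle replicate 5 and 2569 (19.0%) without knockout vehicle replicate 5, but 4 without control vehicle replicates 1 and 3.

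**Figure D3:**
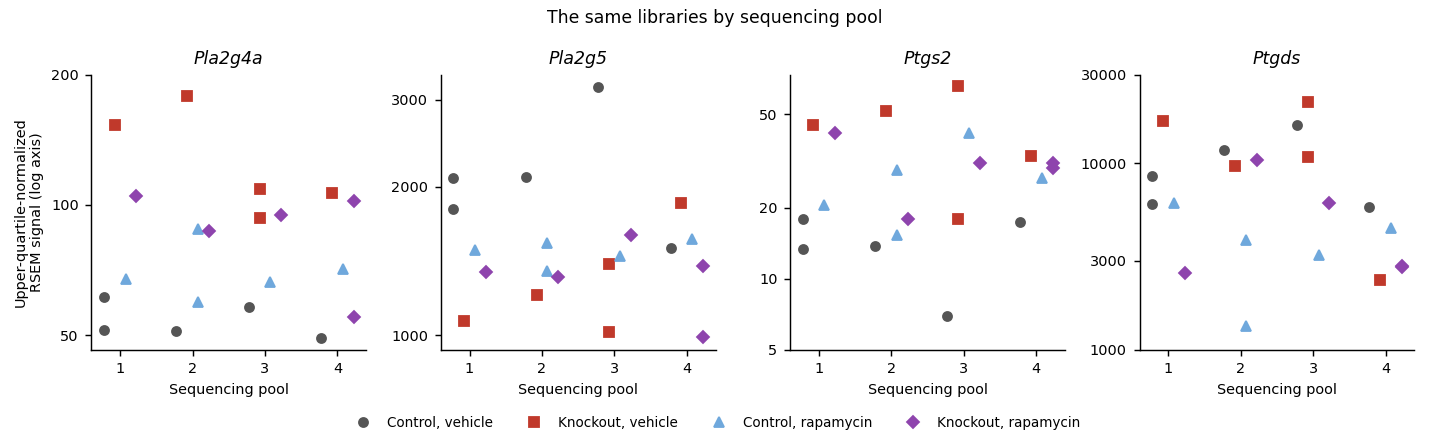
Normalized signal (vertical axes, log scale) of Pla2g4a, Pla2g5, Ptgs2 and Ptgds by sequencing pool (horizontal axes), 1 point per library, with shape and colour for the group. The Pla2g4a vehicle groups, on which the gene was picked, do not overlap, so their order is the same in every pool, and the order for Pla2g5 turns in pool 4.

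Summed markers of other cells in the ventricle correlated with some of these genes, and the lists described here are a selection of those examined. Summed fibroblast markers (7 of 7 tested, 7 higher in knockout vehicle hearts, none at 0) ranged from 57908 to 70806 in control vehicle, from 82610.0 to 133420.0 in knockout vehicle, from 64296 to 87508 in control rapamycin and from 87091 to 130490.0 in knockout rapamycin hearts. Erythroid markers (4 of 5 in the table, 0 higher) ranged from 30074 to 72369 in control vehicle, from 6647 to 23484 in knockout vehicle, from 19725 to 48354 in control rapamycin and from 14388 to 51533 in knockout rapamycin hearts. Nerve and glia markers (5 of 5 tested, 4 higher) ranged from 408 to 809.9 in control vehicle, 869 to 1024 in knockout vehicle, 602 to 1108 in control rapamycin and 845 to 1383 in knockout rapamycin hearts. Atrial markers (4 of 5 tested, 4 higher) ranged from 1357.5 to 6056, 4141 to 63604, 1521 to 34775 and 8104.5 to 58970.0 in the same order of groups. Platelet markers (4 of 5 tested, 0 higher, Gp9 at 0 in some libraries) ranged from 379 to 815, 221 to 585, 289 to 401 and 237 to 299.

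Over the 20 libraries, which share the groups and the scaling, Pla2g4a had a Pearson correlation of 0.65 with the fibroblast sum and -0.81 with the erythroid sum on the log2 scale. Group means were not subtracted. For Pla2g4a such correlations include the genotype differences for which it was picked, so their sign follows in part from that choice. Ptgs2 had 0.70 with the fibroblast and -0.61 with the erythroid sum, and Pla2g5 had 0.71 with the platelet, 0.63 with the erythroid and -0.63 with the fibroblast sum. With the nerve and glia sum the correlation was -0.69 for Pla2g5, 0.61 for Ptgs2 and 0.60 for Pla2g4a. These lists were not the only ones with values of that size. The endothelial sum had -0.60 with Pla2g5, 0.59 with Ptgs2 and -0.56 with Ptgds. The adipocyte sum had 0.62 with Ptges, and the mast cell sum 0.55 with Ptgs2. For Pla2g4a, Ptgs2 and Pla2g5 the part of any of these cell types in the genotype differences was not tested. Macrophage markers (7 of 7 tested, 5 higher in knockout vehicle hearts, none at 0) ranged from 6471.5 to 7893 in control vehicle, 6802 to 13079 in knockout vehicle, 5673 to 8166 in control rapamycin and 5870.3 to 9125 in knockout rapamycin hearts, and the group with the highest macrophage sum also had the lowest Alox5 mean; the part of these cells in the Alox5 values was not tested.

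The 8 genes did not vary as 1 block. After subtraction of group means, the 28 pairwise correlations over 20 libraries ran from -0.27 to 0.38 with a median of 0.09, and 5 exceeded 0.3. The neighbours Pla2g4a and Ptgs2 had 0.32 within groups and 0.71 without subtraction, the latter including the group differences already described. The genes most like Pla2g4a within groups were Has3 (0.83), Icosl (0.75) and Fam78b (0.75), and without subtraction they were Plcg2 (0.85), Abca8a (0.83) and D630003M21Rik (0.83). Those most like Ptgs2 were Chst12 (0.84), Zdhhc9 (0.84) and Cd97 (0.82), and those most like Pla2g5 were Acaa2 (0.81), Mboat2 (0.81) and Itga7 (0.78). Among the 3 most like Ptgs1 was Ptgfr (0.79), the prostaglandin F receptor, and among the 3 most like Ptgds was the phospholipase Pla2g12a (0.80). Among the 3 most like Ptgis were Crip1 (0.869) and Cd9 (0.866). Those most like Ptges were Etv1 (0.76), Grhl2 (0.76) and Nhsl1 (0.72), and those most like Alox5 were Gm5065 (0.85), Ear2 (0.79) and N4bp2l1 (0.73).

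The rest of the eicosanoid pathway was followed in a list of 82 other genes, of which 81 were in the table and 51 passed the filter. By limma, 0 of the 51 were called in any of the 7 comparisons. Under vehicle, 11 were higher and 3 lower in knockout hearts at an unadjusted p under 0.05, which is 27.5% of the 51 against 31.8% of all tested genes. Their median difference was 0.06 on the log2 scale, against 0.07 over all tested genes. Without control vehicle replicate 5, and likewise without knockout vehicle replicate 5, 9 of the 51 (17.6%) were called, beside the 22.8% and 19.0% of all genes given above. In the first case these were Alox8, Anxa1, Pla2g12a, Pla2g7, Plaa, Pnpla8, Ptger1, Ptges2 and Ptgr2, and in the other Alox8, Cyp2j6, Hpgd, Pla2g12a, Plaa, Pnpla8, Ptges2, Ptgr2 and Zadh2. Without control vehicle replicate 4, 1 (Ptgr2) was called, at an adjusted p of 0.04863.

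**Figure D4:**
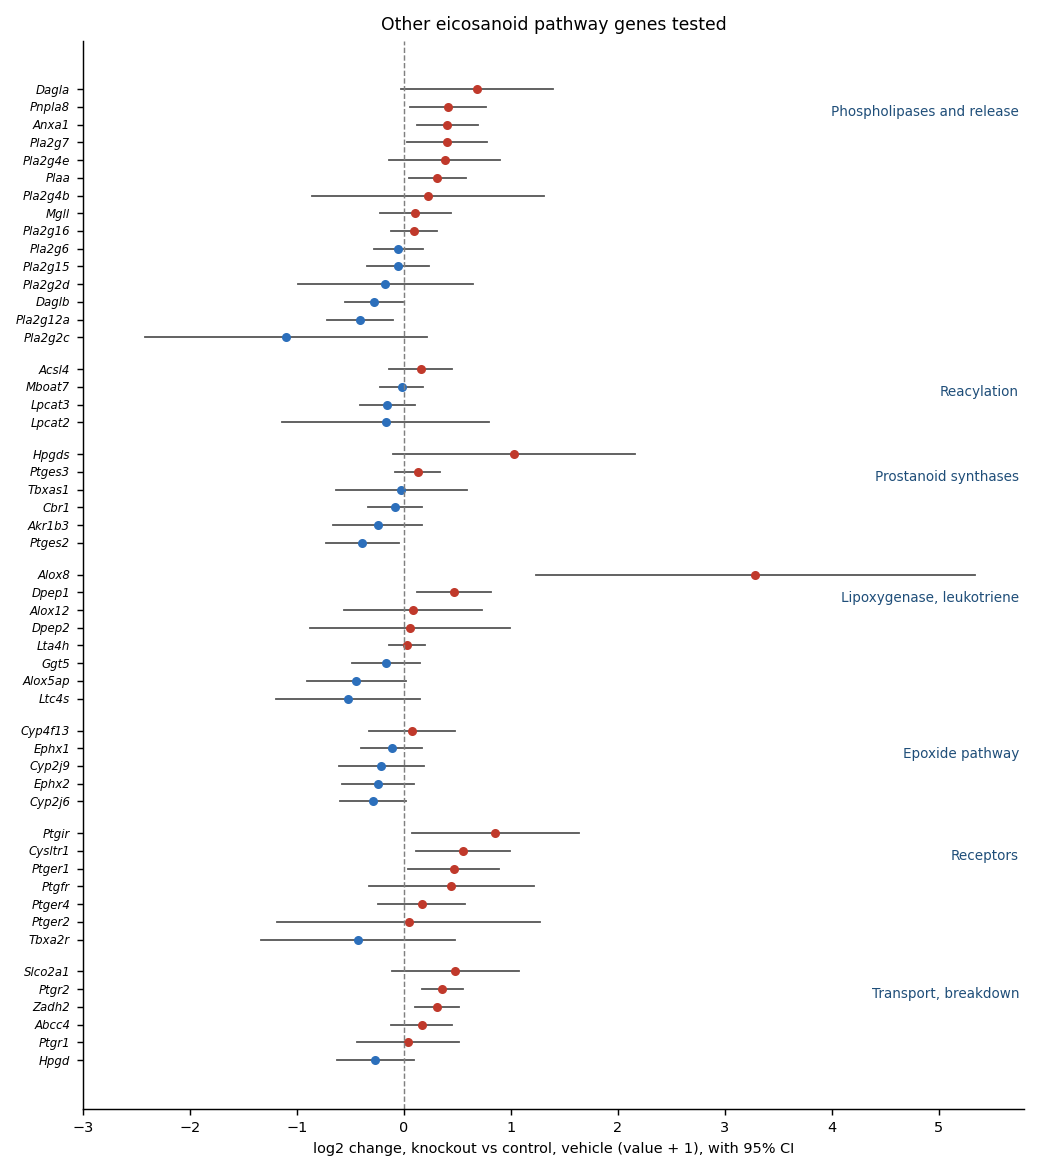
Log2 difference between knockout and control vehicle hearts (horizontal axis, on values + 1) for the 51 other pathway genes tested, grouped by role, with 95% confidence intervals and red or blue points for positive or negative differences. Most intervals include 0, and the widest belongs to Alox8, whose values were near 0.

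Among the 15 tested phospholipases and release genes, 4 were higher and 2 lower at an unadjusted p under 0.05, with a median of 0.11. The calcium-independent phospholipase Pnpla8 had means of 3055 ± 873 (SD, n = 5) in control and 3983 ± 709 in knockout vehicle hearts (0.41, adjusted p = 0.122), and Anxa1, known as an inhibitor of phospholipase A2 activity, 636 ± 76.3 and 848 ± 143 (0.41, adjusted p = 0.09948). The secreted Pla2g12a lay the other way, at 1942 ± 186 and 1479 ± 296 (-0.41, adjusted p = 0.1054). Mgll, the monoacylglycerol lipase that supplies arachidonate from 2-arachidonoylglycerol, was among the highest of the list at 4299 ± 1242 and 4479 ± 194, and Pla2g16 had 4322 ± 393 and 4626 ± 440.3 (adjusted p = 0.6496 and 0.5082). Without control vehicle replicates 1 and 3 the difference was 0.12 for Pnpla8, 0.35 for Anxa1 and -0.32 for Pla2g12a. Each of Pla2g1b, Pla2g2a and Pla2g4d was listed at 0 in all 20 libraries.

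Reacylation genes, which return arachidonate to phospholipids, showed 0 of 4 at an unadjusted p under 0.05 under vehicle. The arachidonate-preferring acyl-CoA synthetase Acsl4 had 394 ± 75.9 in control and 436 ± 53.2 in knockout vehicle hearts (0.16, adjusted p = 0.4281), and without control vehicle replicates 1 and 3 its difference was -0.05. The lysophospholipid acyltransferases Lpcat3 and Mboat7 had differences of -0.16 and -0.02.

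Of the 6 other prostanoid synthases tested, 1 was lower at an unadjusted p under 0.05. Ptges2, another prostaglandin E synthase, had 2262 ± 611 in control and 1705 ± 340.3 in knockout vehicle hearts (-0.39, adjusted p = 0.1233). The cytosolic Ptges3, also the heat shock protein 90 cochaperone p23, had 1699 ± 272 and 1843 ± 106 (0.13, adjusted p = 0.3656), and the aldose reductase Akr1b3, which can make prostaglandin F2α, 3747 ± 1011 and 3139 ± 727 (-0.25, adjusted p = 0.3883). Hpgds, the haematopoietic prostaglandin D synthase, was far below Ptgds, at 13.4 ± 10.6 and 26.9 ± 17.3 (1.03, adjusted p = 0.1872). Leaving out control vehicle replicates 1 and 3 gave -0.12 for Ptges2, -0.03 for Akr1b3 and 0.50 for Hpgds.

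In the lipoxygenase and leukotriene group, 2 of 8 were higher at an unadjusted p under 0.05. Alox8 was listed at 0 in 4 of the 5 control vehicle hearts and at 4.47 in replicate 4, whereas knockout vehicle hearts had 32.9, 12.4, 1.99, 23.0 and 13.8 (adjusted p = 0.08923). Control rapamycin hearts had 35.6, 54.4, 0, 1.31 and 8.90 and knockout rapamycin hearts 16.5, 50.2, 5.15, 3.44 and 21.6, so Alox8 varied widely wherever it was present. Dpep1, a dipeptidase that converts leukotriene D4 to leukotriene E4, had 1765 ± 267 in control and 2466 ± 519 in knockout vehicle hearts, and 1523 ± 326 and 2206 ± 424 under rapamycin. Its difference averaged over injections was 0.50 (SE 0.12, adjusted p = 0.05802). Of the fits with 1 library left out, it passed only in that without knockout rapamycin replicate 4 (adjusted p = 0.04638). There 72 of all 13528 tested genes were called, against 60 of 13548 with all libraries. Alox5ap, the partner of 5-lipoxygenase, had 361 ± 94.0 and 267.5 ± 73.8 under vehicle (-0.44, adjusted p = 0.1709), and -0.18 without control vehicle replicates 1 and 3. Under rapamycin its difference was 0.14 (adjusted p = 0.9996), while that of Alox5 was -0.35. Lta4h, the leukotriene A4 hydrolase, differed by 0.03 under vehicle.

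In the epoxide group, 0 of 5 tested genes had an unadjusted p under 0.05. Ephx2, the soluble epoxide hydrolase that degrades epoxyeicosatrienoic acids, had 12420.0 ± 4254 in control and 10120.0 ± 701 in knockout vehicle hearts (-0.24, adjusted p = 0.2969), and its difference was 0.02 without control vehicle replicates 1 and 3. The epoxygenase Cyp2j6 and the microsomal hydrolase Ephx1 differed by -0.29 and -0.11.

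Of the 7 receptors tested, 3 were higher at an unadjusted p under 0.05. Ptgir, the prostacyclin receptor, had 64.0 ± 29.0 in control and 115 ± 51.3 in knockout vehicle hearts (0.86, adjusted p = 0.1328). Cysltr1, a cysteinyl leukotriene receptor, had 35.2 ± 8.96 and 51.4 ± 8.93 (0.55, adjusted p = 0.1106), and the prostaglandin E receptor Ptger1 had 468 ± 169 and 615 ± 91.2 (0.47, adjusted p = 0.1333). Without control vehicle replicates 1 and 3 the differences were 0.47 for Ptgir, 0.79 for Cysltr1 and 0.06 for Ptger1, and without replicate 3 alone that of Ptger1 was 0.27. The receptors Ptger4 and Ptgfr differed by 0.17 and 0.44, and by 0.03 and 0.26 without those 2 libraries. Ptgdr, a receptor for prostaglandin D2, was listed at 0 in all 20 libraries.

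Breakdown and transport genes included the lowest adjusted p of the list for genotype under vehicle. Ptgr2, a prostaglandin reductase, had 4799, 5424, 5984, 5823 and 5740.2 in control vehicle hearts. In knockout vehicle hearts it had 6895, 7430.2, 8396, 6632 and 6336. These groups did not overlap, which was also the case for 2.32% of all tested genes. The difference was 0.36 (SE 0.09, adjusted p = 0.07573) under vehicle and -0.04 under rapamycin (adjusted p = 0.9996), and the interaction of -0.40 (SE 0.13) had an adjusted p of 0.5232. The related reductase Zadh2 had 2120.0 ± 150.0 and 2629 ± 226 (0.31, adjusted p = 0.09664), and the exporter Abcc4 differed by 0.17 (adjusted p = 0.3891). Leaving out control vehicle replicates 1 and 3 gave 0.33 for Ptgr2, 0.30 for Zadh2 and 0.05 for Abcc4.

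For rapamycin averaged over genotypes, 1 of the 51 was higher and 3 were lower at an unadjusted p under 0.05, 7.84% against 9.23% of all tested genes. Their median difference was -0.02, against 0.04 over all tested genes. Under rapamycin 3 of the 51 differed between genotypes at an unadjusted p under 0.05, 2 higher and 1 lower, which is 5.88% against 2.97% of all genes. The corresponding counts were 7 for rapamycin in controls (13.7% against 14.9%), 3 for rapamycin in knockouts (5.88% against 5.71%), 4 for the interaction (7.84% against 8.3%) and 8 for genotype averaged over injections (15.7% against 19.1%).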

How the data were processed

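The deposited values are a signal, RSEM gene estimates that the authors brought to a common upper quartile, which was 996.6 to 1000.0 over values above 0 in the 20 libraries. Picard 1.64, SAMtools, RSEM and the mouse build mm9 are named, without roles, per the submitters' processing notes, and the aligner is not given in the sources used here. Low values were whole multiples of 1 step per library within 0.05 reads in 88.0% to 90.9% of cases, too few to treat reads as recovered, so the step gave only implied depth and read equivalents (value divided by step). Depth limits precision most for Ptgs2 and Ptges.

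Genes with a value of at least 10 in at least 5 libraries were tested (13548 of 21705). Group means of log2(value + 1) over all 20 libraries were compared in limma (version 3.58.1, R version 4.3.3), using its intensity trend and Benjamini-Hochberg adjustment over all tested genes, threshold 0.05. Changes on that scale understate those of low genes. The procedure was tested on simulated data with independent noise for each gene. Such data lack variation shared between genes, so that test does not cover the dependence of the calls on single libraries. Values per kilobase used the median length of protein-coding transcripts from GENCODE on GRCm38, and upstream sequences came from RefSeq on GRCm38.p6; neither build is that of the table. Correlations are Pearson's, on log2(value + 1). Marker sums are sums of signal over each list.

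The 8 members, the pathway list and the marker lists were chosen with earlier results of these data known. Named pathway genes are, for each of 7 roles, the 3 tested genes with the highest mean and the 2 with the smallest unadjusted p for genotype under vehicle, plus any called. Pla2g7, Plaa, Hpgd, Pla2g2d and the genes listed at 0 in all libraries fall outside this rule and were named after their values were seen. Acsl1 was the check of the labels, and the genes most like a member are the 3 with the highest correlation. Other pseudocounts, filters, scalings, terms for pool and replicate number, robust fits with array weights, fits of only the groups compared, and fits without libraries were tried as alternatives. Some single-gene values are not reported here.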

Additional observations from a re-analysis of the deposited data

Results flagged for a closer look

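Within groups of 5 libraries, 7 values stood far from the other 4 by Dixon's ratio, among 140 groups of the 35 genes named above, and chance alone gives such a value in about 1 in 20 groups. Of the 8 enzymes, Ptges was affected: control rapamycin replicate 3 had 52.75, and the next value was 35.6. In control vehicle hearts, Anxa1 had 769 in replicate 5 (next 623), Alox8 had 4.47 in replicate 4 (the others were listed at 0), and Ephx2 had 19742 in replicate 3 (next 12308). In knockout vehicle hearts, Ephx1 had 1519 in replicate 5 (next 1103). In knockout rapamycin hearts, Ptger1 had 723 in replicate 5 (next 532), and Cysltr1 had the low value of 25.8 in replicate 4 (next 45.9).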

How the results depend on the processing

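Over all alternatives, 1683 recomputed log2 changes of the 8 enzymes stayed on the same side of the threshold, or, for the untested Pla2g4a differences, moved by less than the spread between replicates; the other 8 were the Ptgs2 and Pla2g5 calls under vehicle described above, each with a single library left out. The Pla2g4a difference under vehicle ran from 0.99 to 1.28 over the other settings and from 1.06 to 1.29 with 1 library left out. Every setting uses the libraries for whose rise the gene was picked, so the steady sign adds no support. The count of the 7 other enzymes called under vehicle ran from 0 to 2 with 1 library left out, and that of the 51 pathway genes from 0 to 9. For genotype averaged over injections the pathway count was 1 (Dpep1) with robust empirical Bayes and array weights and 0 to 1 with 1 library left out, and for rapamycin averaged over genotypes it was 1 with a pseudocount of 10, 1 with quantile normalization (Pla2g2d in both, where 20 and 25 of all 13548 genes were called) and 0 to 1 with 1 library left out. Without control vehicle replicates 1 and 3 the vehicle difference turned to -0.046 for Acsl4 and to 0.017 for Ephx2, and, from values below 1 SE, to -0.131 for Mgll and 0.012 for Mboat7; the cause was not tested. The count of all genes called under vehicle, 33, was 56 with a pool term, 12 with robust weights, 3 with only the groups compared, 4 without control vehicle replicates 1 and 3, and 8 to 3090 with 1 library left out. The count for genotype averaged over injections, 60, was 37 without a filter, 131 with robust weights, 11 without those 2 libraries and 21 to 150 with 1 library left out. The count for rapamycin averaged over genotypes, 17, was 0 with a pool term, 35 with robust weights, 4 without those 2 libraries and 3 to 17 with 1 library left out. The count for genotype under rapamycin, 3, was 14 with robust weights, and for rapamycin in knockouts, 1, it was 58 with robust weights and 0 with quantile or median-ratio scaling, a pool term, only the groups compared, or without those 2 libraries.

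Replicate numbers did not pair the samples: of 30 same-numbered pairs, 10 had a correlation of deviations over 0.1 (range -0.515 to 0.427), and 4 of 20 libraries correlated best with one of its own number. With the replicate number as a block, 0 of the 7 enzymes and 0 of the 51 pathway genes were called, as without it, and the count of all genes called was 49 for genotype under vehicle, 62 averaged over injections, 5 for rapamycin averaged over genotypes and 0 for rapamycin in knockouts.

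At 3 to 46 read equivalents for Ptgs2 and 10 to 57 for Ptges, small differences were not detectable at this depth. The RNA was bulk tissue, and protein and prostanoid levels were not analysed here.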
